A study of Homo sapiens with 4 samples.

Results

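The data described here are the regional differences between the response of chromosome folding to RAS in cells with HMGA1 and the same response in cells depleted of HMGA1. They come from Hi-C, in which chromatin is fixed, cut and religated inside the nucleus, so that sequenced junctions count contacts between distant stretches of DNA. The cells were IMR90, diploid fibroblasts from human lung. They carried pLNCX2 ER:HRAS G12V, an oncogenic HRAS fused to a hormone-binding domain and switched on by 4OHT. GrowshA1 cells (2 samples) were proliferating and carried the pMSCV miR shHMGA1 hairpin against HMGA1, and RISshA1 cells (2 samples) carried the same constructs and received 100 nM 4OHT for 6 days, which brings on RAS-induced senescence (RIS). The maps without the hairpin, Grow and RIS, were made from libraries the laboratory had sequenced previously, which are not among the samples here. Hairpin and data set therefore cannot be told apart in a simple difference, and a shift common to both hairpin maps drops out of the interaction. There was 1 map per condition, and the shA1 maps each pool their 2 samples. No spread between replicates could therefore be computed and no difference below was tested. A contact map does not measure HMGA1 itself, so the depletion could not be checked here.

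For each pair of genome bins of about 200 kb on 1 autosome, the interaction was the RAS response with the hairpin (RISshA1 minus GrowshA1) minus the RAS response without it (RIS minus Grow). The values are the deposited distance-corrected contact scores. A score is corrected for the distance of its pair, and 0 was not the mean of the values used below. The base of the logarithm behind the score is not stated, so differences are given in score units. A positive interaction means that the RAS change of contact was more positive, or less negative, with the hairpin than without it. Contact in RISshA1 need not be higher than in RIS. The maps listed from 79.0% (RISshA1) to 91.3% (Grow) of the pairs that any map listed, and 64.1% (3057404 pairs) were listed in all 4. Pairs were averaged in blocks of 5 by 5 bins, and 114606 of 205539 possible blocks had at least 60% of their pairs in all 4 maps. Along the genome, 5 consecutive bins made a segment of about 1 Mb. The domain interaction of a segment is its block with itself, and the distal interaction is the mean over its blocks with segments at least 3 away on the same chromosome, over about 2 Mb. Of 2711 segments, 2668 had a domain value and 2665 a distal value. Read counts per pair were not used here, and how precise 1 score is cannot be said. SDs below describe spread over pairs, blocks or segments of these maps.

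HMGA1 is an abundant chromatin protein whose AT-hooks bind the minor groove of AT-rich DNA. Fibroblasts that enter senescence through oncogenic RAS gather heterochromatin into foci known as SAHF, and HMGA1 takes part in forming them. Gene-poor, AT-rich chromatin usually belongs to the inactive B compartment, which is late-replicating and often lies at the nuclear lamina. Gene-rich chromatin usually belongs to the active A compartment.

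To show the DNA at stake, 1 typical window of 200 bases is printed from each of 6 leading segments, 3 with a higher and 3 with a lower interaction. Each window lies outside exons and has as many bases in A/T runs as the median window of its segment, nearest to the segment's midpoint. The sequences are the plus strand of GRCh37, and capitals mark runs of 8 or more consecutive A or T letters, which read the same way on both strands.
chromosome 1, highest domain interaction, chr1:73503864-73504063: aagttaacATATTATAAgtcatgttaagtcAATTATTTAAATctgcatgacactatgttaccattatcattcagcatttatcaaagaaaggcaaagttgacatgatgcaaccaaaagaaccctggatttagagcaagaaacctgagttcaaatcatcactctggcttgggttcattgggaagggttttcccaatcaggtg
chromosome 21, highest distal interaction, chr21:20497150-20497349: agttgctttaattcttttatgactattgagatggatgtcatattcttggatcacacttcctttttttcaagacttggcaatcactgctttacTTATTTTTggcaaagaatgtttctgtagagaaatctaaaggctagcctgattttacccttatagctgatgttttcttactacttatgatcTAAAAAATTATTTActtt
chromosome 13, next highest distal interaction on another chromosome, chr13:70304599-70304798: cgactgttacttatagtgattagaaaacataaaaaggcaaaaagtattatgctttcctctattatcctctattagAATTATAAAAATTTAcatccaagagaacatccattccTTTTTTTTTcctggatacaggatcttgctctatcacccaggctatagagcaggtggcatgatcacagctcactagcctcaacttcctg
chromosome 16, lower domain interaction, chr16:83296655-83296854: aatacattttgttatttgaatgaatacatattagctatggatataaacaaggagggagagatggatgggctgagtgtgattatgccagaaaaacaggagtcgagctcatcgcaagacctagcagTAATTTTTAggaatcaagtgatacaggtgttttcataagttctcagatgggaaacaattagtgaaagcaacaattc
chromosome 21, lower domain interaction, chr21:39499018-39499217: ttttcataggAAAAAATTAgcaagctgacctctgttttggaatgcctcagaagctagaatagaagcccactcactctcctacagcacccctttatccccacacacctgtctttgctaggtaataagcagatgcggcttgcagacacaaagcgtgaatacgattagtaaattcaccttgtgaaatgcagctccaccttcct
chromosome 4, lowest distal interaction, chr4:3499043-3499242: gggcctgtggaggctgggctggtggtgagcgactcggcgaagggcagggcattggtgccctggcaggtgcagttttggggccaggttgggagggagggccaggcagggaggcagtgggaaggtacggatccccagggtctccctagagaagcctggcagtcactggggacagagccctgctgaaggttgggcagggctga
The windows of chromosome 13 and chromosome 4 lie in introns of KLHL1 and DOK7, that of chromosome 16 lies in an intron of CDH13, that of the lower chromosome 21 segment lies in the non-coding DSCR8 gene, and the other two are intergenic. The 3 windows from segments with a higher interaction hold 21, 22 and 24 bases in such runs. The 3 windows from segments with a lower interaction hold 9, 9 and 0. Over the whole segments, 85.4%, 85.2% and 87.8% of windows of this length held at least 1 run in the higher segments, against 66.6%, 64.97% and 40.9% in the lower ones. Over all 13422598 windows of the autosomes the share was 72.2%. A run is a description of the sequence and was not tested as a binding site.

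Within segments, contact in gene-poor chromatin was lower after RAS, and this difference was smaller in HMGA1-depleted cells. A domain interaction of 0.2 or more was found in 604 of 2668 segments (22.6%), and one of -0.2 or less in 245 (9.18%). In the 604 higher segments, the median domain score was 0.404 in Grow, 0.364 in GrowshA1, -0.124 in RIS and 0.157 in RISshA1. Thus RIS stood below both growing maps, and RISshA1 lay between them and RIS. The RAS change without the hairpin was below 0 in 595 of these segments, and in 507 of the 604 the change with the hairpin had the same sign and a smaller size. The median RAS change was -0.528 without and -0.228 with the hairpin. The 245 lower segments showed the opposite order. Their median score was 0.142 in Grow, 0.124 in GrowshA1, 0.457 in RIS and 0.140 in RISshA1, so that RIS alone stood high. The RAS change was above 0 in 214 of them, with a median of 0.293 without and 0.0273 with the hairpin. Since the 4 maps define the interaction, these counts describe which terms make it up and are no separate evidence for it. Across all segments, a least-squares line was fitted to the RAS change with the hairpin on that without it, 2 differences that share no map. Its slope was 0.585 (Pearson's r 0.857 over 2668 segments of the same libraries). Imprecision of the change without the hairpin alone pulls such a slope below 1, so the slope cannot measure a smaller response.

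**Figure D1:**
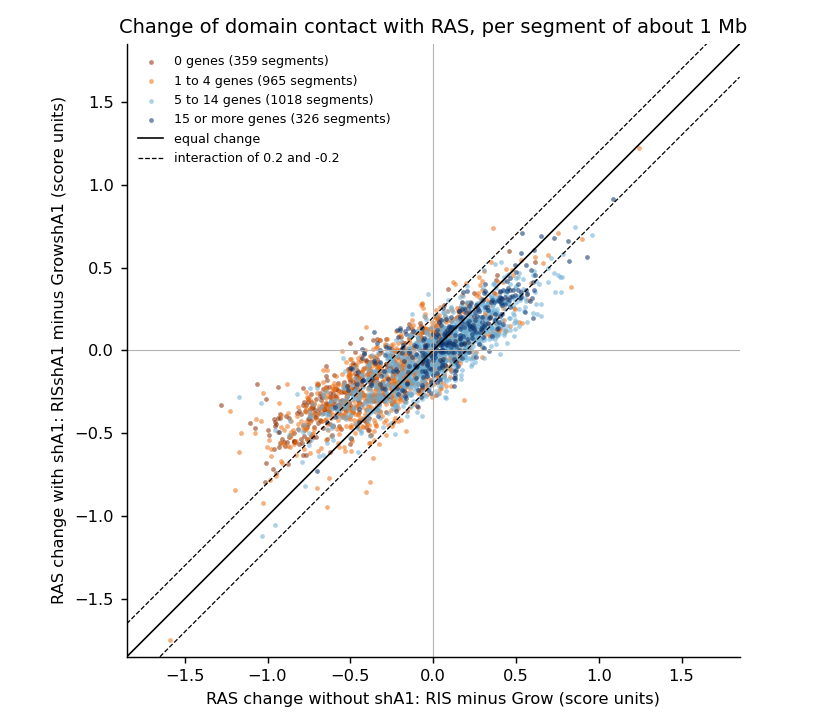
Change of the domain score with RAS in each of 2668 segments, without the hairpin (horizontal axis) and with it (vertical axis), in score units, coloured by the number of protein-coding genes that start in the segment. Segments without a gene lie mostly at the lower left above the line of equal change, with a median change of -0.461 without and -0.251 with the hairpin.

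The domain interaction followed gene content. Segments in which no protein-coding gene starts had a median domain interaction of 0.224, and 198 of 359 (55.2%) were called higher while 4 were called lower. With 1 to 4 genes the median was 0.0695 and 27.5% were called higher. With 5 to 14 genes it was -0.0436, with 10.3% higher and 13.9% lower, and with 15 or more genes -0.0444, with 11.04% higher and 11.3% lower. The median thus fell over the 3 poorer classes, and the 2 richest had nearly equal medians. Segments called higher had a median of 1 gene, a GC content of 37.003% and 10.4 A/T runs per kb. Segments called lower had a median of 8 genes, a GC content of 43.0% and 7.16 runs per kb. All segments with a domain value had 5 genes, 40.2% GC and 8.43 runs per kb. Spearman's rho across segments was -0.412 with the number of genes and 0.452 with the density of A/T runs. The latter was positive on 22 of 22 chromosomes, from 0.179 on chromosome 22 to 0.846 on chromosome 21. Neighbouring segments share chromatin and resembled each other (Pearson's r 0.740), so segments are not independent points and no p is given.

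**Figure D2:**
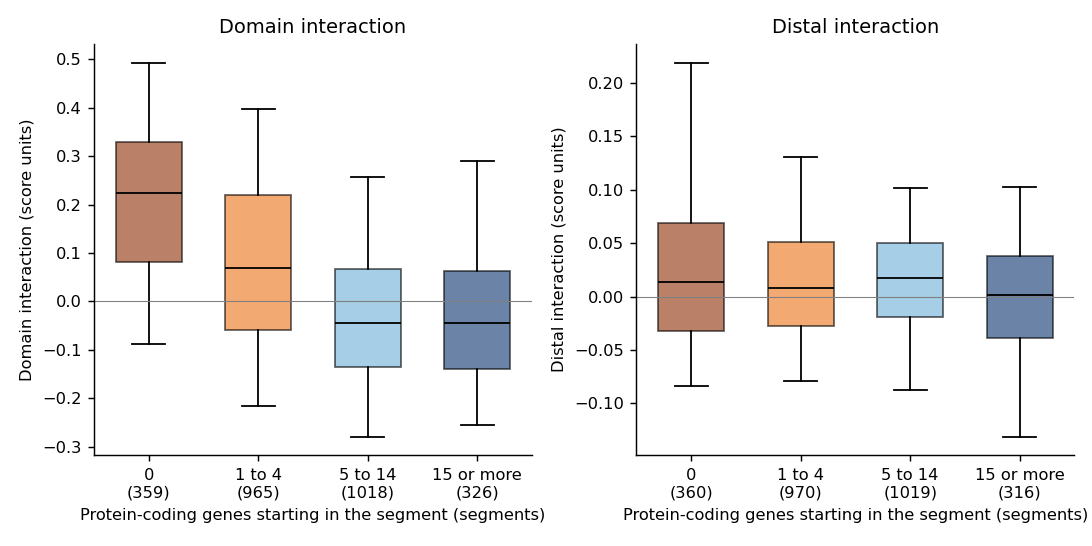
Domain interaction (left) and distal interaction (right) of segments, in score units, in 4 classes by the number of protein-coding genes that start in the segment. Boxes span the quartiles, the line is the median and whiskers reach the 5th and 95th percentiles. The domain median is 0.224 without genes and -0.0444 with 15 or more, while the distal medians lie between 0.00136 and 0.0174.

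Chromosome 1 stood apart from the other autosomes. All 224 of its segments had a domain interaction above 0, with a median of 0.239, 142 called higher and 0 called lower. Its median domain score was 0.903 in Grow, 0.697 in GrowshA1, 0.437 in RIS and 0.492 in RISshA1, each higher than on most other chromosomes. Chromosome 2 followed with a median interaction of 0.111 (77 of 239 segments higher, 0 lower). The medians of chromosomes 9, 13, 14 and 21 lay below 0, at -0.0758, -0.102, -0.0890 and -0.0944. Without chromosome 1, 462 of 2444 segments (18.9%) were higher and 245 (10.0%) lower, and gene-free segments kept a median of 0.222. When the mean interaction of each chromosome at each distance was subtracted, an alternative chosen after the data had been seen, 416 segments were higher and 280 lower. On chromosome 1 this left 25 higher and 7 lower. Gene-free segments then had a median of 0.185, and rho with A/T runs was 0.531. The order by gene and base content therefore held within chromosomes, while the number of calls on chromosome 1 followed from a shift of the whole chromosome whose source was not tested.

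**Figure D3:**
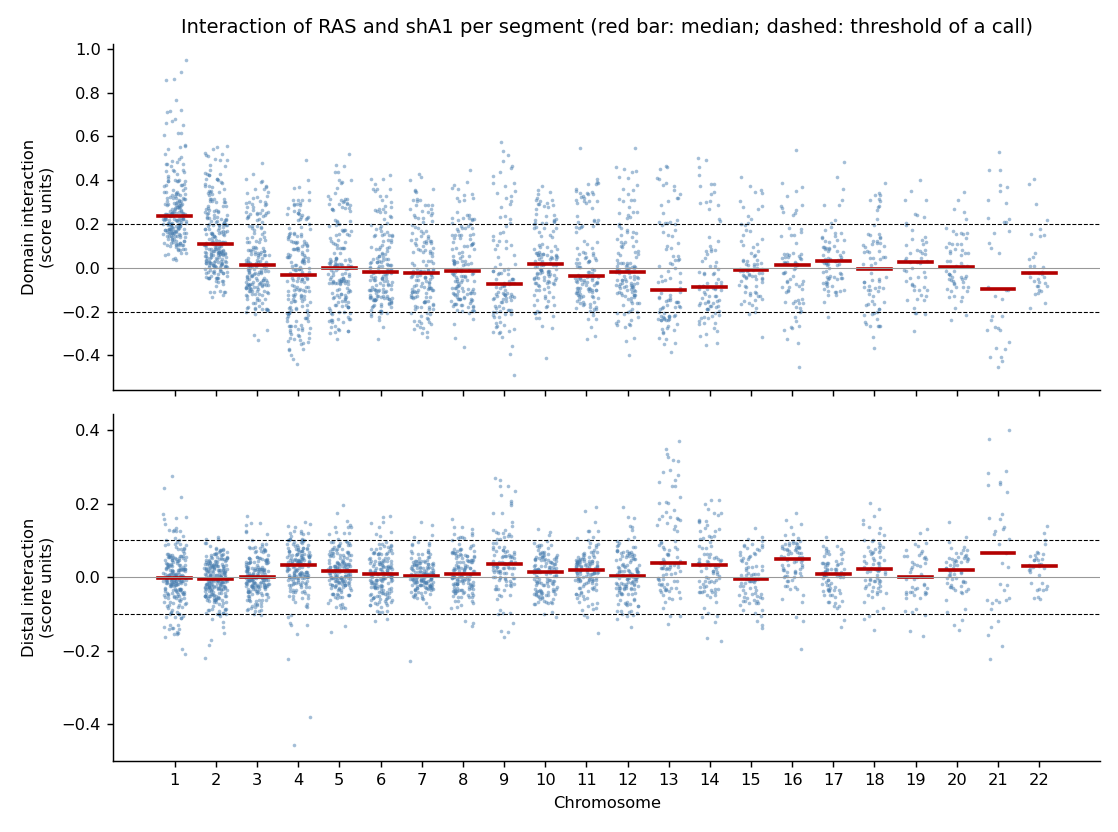
Domain (top) and distal (bottom) interaction of each segment in score units, by chromosome. Points are segments, red bars are medians and dashed lines are the thresholds of a call. Every segment of chromosome 1 lies above 0 in the upper panel, and chromosomes 9, 13, 14 and 21 hold many of the higher segments in the lower panel.

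The 5 highest domain interactions all lay on chromosome 1, in AT-rich segments (GC content 34.8% to 36.8%). These segments held 0 to 5 gene starts, and the median over all segments was 5. The first, at 73000864 to 74001757, holds no gene start. Its domain score was 1.72 in Grow, 1.34 in GrowshA1, 0.443 in RIS and 1.00 in RISshA1, which gives an interaction of 0.950 (SD 0.105 over 15 pairs). RAS lowered contact by 1.28 without the hairpin and by 0.331 with it, in score units. RIS was the lowest of the 4 maps and RISshA1 stood closer to GrowshA1 than to RIS. The next segment, at 74001758 to 75001759, holds TNNI3K, a kinase of heart muscle, with LRRIQ3, LRRC53 and FPGT. Its scores were 1.49, 1.22, 0.313 and 0.943 in Grow, GrowshA1, RIS and RISshA1, and its interaction was 0.893 (SD 0.174). The segment at 102002660 to 103001620, with OLFM3, a secreted olfactomedin protein of neural tissue, had scores of 1.14, 0.790, -0.0907 and 0.424 and an interaction of 0.861 (SD 0.142). The order of the maps was the same in all 3. The segment at 82000722 to 82999042, where no gene starts but ADGRL2 (latrophilin 2, an adhesion receptor) lies in part, had an interaction of 0.856 (SD 0.168). The segment at 103001621 to 103999783, with the fibrillar collagen gene COL11A1, had one of 0.767 (SD 0.185), or 0.492 after subtraction of the mean of chromosome 1. The others, in the order given, had 0.675, 0.618, 0.586 and 0.580 after this subtraction.

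The 5 lowest domain interactions lay on chromosomes 9, 16, 21 and 4. That of chromosome 9, at 44005029 to 45000748 beside the centromere, rests on 10 of 15 pairs with an SD of 0.830 around -0.488, and turned to 0.0930 when extreme scores were limited. The segment of chromosome 16 at 82799655 to 83793089, with HSBP1 and most of CDH13 (T-cadherin, a membrane-anchored cadherin), had scores of -0.0862 in Grow, -0.183 in GrowshA1, -0.489 in RIS and -1.04 in RISshA1. Its interaction was -0.455 (SD 0.0852 over 15 pairs). Here contact was lower with RAS in both backgrounds, and lowest with RAS and the hairpin together. On chromosome 21, the segment at 38998418 to 39999266, with the potassium channel genes KCNJ6 and KCNJ15 and part of the transcription factor gene ERG, had scores of 0.728, 0.860, 1.56 and 1.24 in Grow, GrowshA1, RIS and RISshA1, and an interaction of -0.453 (SD 0.117). The segment at 37000690 to 37998836 holds the annotated starts of RUNX1, the claudin CLDN14 and CHAF1B, a subunit of the chromatin assembly factor CAF-1. Its scores were -0.0266, -0.0310, 0.380 and -0.0518, and its interaction was -0.427 (SD 0.125). In both, RIS had the highest score of the 4 maps. The segment of chromosome 4 at 5000474 to 6000483, with EVC and EVC2 (ciliary proteins of Hedgehog signalling), CRMP1, STK32B and CYTL1, also had RIS as its highest map, with scores of 0.674, 0.624, 1.32 and 0.835, and an interaction of -0.439 (SD 0.113).

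**Figure D4:**
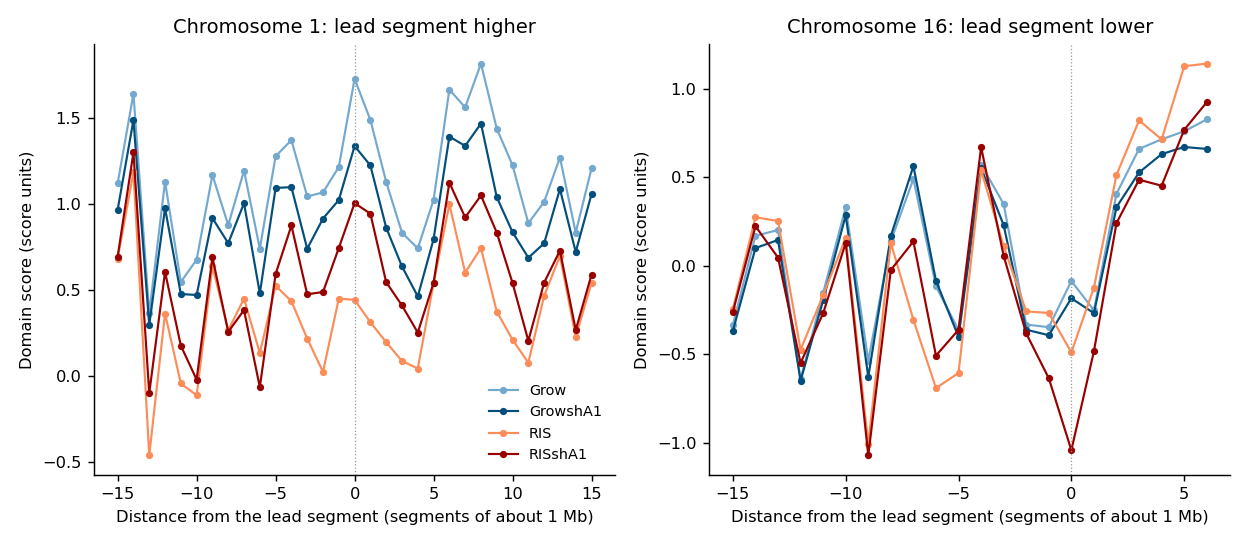
Domain score of the 4 maps (score units) in segments around the highest domain interaction (chromosome 1, left) and the lowest one with all pairs listed (chromosome 16, right), by distance from that segment in segments of about 1 Mb. On the left RIS is the lowest map at the centre (0.443) and RISshA1 lies above it (1.00). On the right RISshA1 is the lowest map at the centre (-1.04).

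Neighbouring segments with the same call formed domains of many megabases. By a rule added after the values had been seen, runs of at least 3 segments were listed for domain calls too, which gave 76 higher runs with 404 segments and 23 lower runs with 102. The longest higher run, 19 segments of chromosome 1 (68001174 to 87000861), holds NEGR1, an adhesion molecule of neurons, ADGRL2 and LRRC7 among its 67 genes. Its mean domain score was 1.25 in Grow, 0.989 in GrowshA1, 0.392 in RIS and 0.675 in RISshA1, and its mean interaction 0.544, or 0.269 after subtraction of the chromosome mean. A run of 15 segments (94003795 to 108993792) with DPYD, the rate-limiting enzyme of pyrimidine breakdown, NTNG1 and COL11A1 had a mean of 0.507, or 0.231 after subtraction. In these 2 runs the interaction thus exceeded that of their chromosome. A run of 16 segments (40998472 to 56997286), with 186 genes such as CDKN2C and CDC20, had 0.287 and was 0.0110 after subtraction. The run at 169599050 to 180609122 had 0.251 and was -0.0244 after subtraction, so that both lay close to the mean of chromosome 1.

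The longest higher domain run on another chromosome was on chromosome 5, 13 segments (17999960 to 31000766) with 5 genes, CDH18, CDH12, CDH9, CDH10 and PRDM9. The CDH genes encode type II cadherins, which join cells of the nervous system among others, and PRDM9 sets recombination sites in meiosis. Its mean domain score was 0.121 in Grow, 0.134 in GrowshA1, -0.687 in RIS and -0.313 in RISshA1, with interactions from 0.260 to 0.521. The 2 growing maps were alike and RISshA1 lay between them and RIS. Over longer distances the region behaved differently. Its 55 blocks between its own segments at least 3 apart had a RAS change of 0.0654 without and 0.656 with the hairpin, an interaction of 0.591 (SD 0.120 over blocks). The longest lower domain runs had at most 8 segments. On chromosome 21 (33001069 to 40997360), 8 segments with RUNX1, ERG and KCNJ6 among 71 genes had a mean score of 0.253 in Grow, 0.265 in GrowshA1, 0.823 in RIS and 0.509 in RISshA1, and a mean interaction of -0.326. On chromosome 13 (45798898 to 53800792), 8 segments with RB1, the retinoblastoma tumour suppressor, had -0.116, -0.0371, 0.260 and 0.0868, and a mean of -0.252. Runs on chromosome 4 (183598051 to 190594528, with FAT1 and IRF2) and chromosome 5 (169597179 to 176590801, with NSD1) had means of -0.308 and -0.272. The fifth, 5 segments of chromosome 4 (4000033 to 8999545, with EVC2), had a mean of -0.348. In all 5, contact was higher in RIS than in RISshA1.

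Distal values of segments were smaller than domain values and less tied to gene content. A distal value is a mean over many blocks, whereas a domain value comes from a single block, so their sizes cannot be compared directly. Single distal blocks with all pairs listed had an SD of 0.249, and domain values had an SD of 0.198. Distal interactions were therefore not smaller block by block. A distal interaction of 0.1 or more was found in 222 of 2665 segments (8.33%) and one of -0.1 or less in 93 (3.49%). When each map was scaled to the same SD at each distance, these counts were 364 and 59, and when the mean interaction at each distance was subtracted they were 162 and 159, so that the balance of directions depends on the scaling. In the 222 higher segments the median RAS change was -0.111 without and 0.0446 with the hairpin, and in 174 the former was below 0. Of the same 222, GrowshA1 lay below Grow in 203 (median difference -0.0911) and RISshA1 above RIS in 179 (median difference 0.0701). In the 93 lower segments the median RAS change was -0.0267 without and -0.152 with the hairpin. Higher segments had a median of 1 gene and 37.05% GC, and lower segments 6 genes and 45.8% GC. Over all segments rho with the number of genes was -0.0437, and -0.222 with the maps scaled to the same SD. Of gene-free segments 17.8% were called higher, against 5.38% of those with 15 or more genes, of which 7.28% were called lower. Distal and domain interactions hardly went together (Pearson's r 0.0494 over 2654 segments). By chromosome, 16 of 35 segments were called higher on chromosome 21, 30 of 96 on chromosome 13, 21 of 89 on chromosome 14 and 24 of 111 on chromosome 9, but 3 of 239 on chromosome 2.

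Distal calls formed 23 higher regions (130 segments on 12 chromosomes) and 10 lower regions (41 segments on 7 chromosomes), each of at least 3 consecutive segments. The longest higher regions were AT-rich and gene-poor. The first, 12 segments of chromosome 9 (20000934 to 31996322), holds 37 genes. Among them are CDKN2A and CDKN2B, inhibitors of cell cycle kinases that enforce arrest, and the type I interferon cluster with IFNB1. Its mean distal score was 0.672 in Grow, 0.568 in GrowshA1, 0.392 in RIS and 0.460 in RISshA1, an interaction of 0.172 (SD 0.0590 over segments). Both growing maps stood above both RIS maps. On chromosome 21, 11 segments (17000885 to 27997664) with NCAM2, a neural adhesion molecule, CHODL, APP, the amyloid precursor, and the virus receptor CXADR had 0.803, 0.709, 0.465 and 0.621, an interaction of 0.2496 (SD 0.0910). On chromosome 14, 11 segments (38805327 to 49801834) with MDGA2, LRFN5 and FANCM had 0.549, 0.475, 0.367 and 0.450, an interaction of 0.156 (SD 0.0360). In all 3 regions RISshA1 lay between RIS and the growing maps.

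On chromosome 13 there were 2 such regions, and there the RAS change had opposite signs with and without the hairpin. In 10 segments (81799378 to 91799581) with 3 genes, SLITRK1, SLITRK5 and SLITRK6, which encode synaptic adhesion proteins, the RAS change was -0.0784 without and 0.134 with the hairpin. The scores were 0.620 in Grow, 0.465 in GrowshA1, 0.542 in RIS and 0.599 in RISshA1. In 10 segments (64800235 to 74799384) with PCDH9, KLHL1, DACH1 and the Krüppel-like factor genes KLF5 and KLF12, it was -0.0518 without and 0.153 with the hairpin. Their interactions were 0.213 (SD 0.0607) and 0.204 (SD 0.0909), or 0.131 and 0.117 after subtraction of the chromosome mean. Counting unlisted pairs as 0 gave 0.0897 for the region of chromosome 9 and 0.0901 for that of chromosome 14, below the threshold.

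In these 5 regions the mean interaction per block was highest in contacts of the region with itself, although most blocks joined it to outside partners. Blocks between segments of the same region had a mean interaction of 0.520 (SD 0.160, 45 blocks) on chromosome 9, 0.442 (SD 0.341, 36 blocks) on chromosome 21 and 0.505 (SD 0.2003, 36 blocks) on chromosome 14. On chromosome 13 they had 0.654 (SD 0.174, 28 blocks) in the SLITRK region and 0.516 (SD 0.276, 28 blocks) in the PCDH9 region. The RAS change of such blocks was -0.376 without and 0.144 with the hairpin on chromosome 9, and 0.0854 without and 0.740 with it in the SLITRK region. With partners outside the region, the means were 0.0678 to 0.188 where the partner had up to 4 genes and 0.0850 to 0.206 where it had more. Partners with few and with many genes thus differed less from each other than either did from the region itself, and on chromosomes 14 and 21 the gene-rich partners had the higher mean. Blocks within a region span at most its length, whereas outside partners lie anywhere on the chromosome, and distance was not matched. Self-contact and short range therefore cannot be told apart here. The blocks within a region also entered the distal values by which it was chosen.

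**Figure D5:**
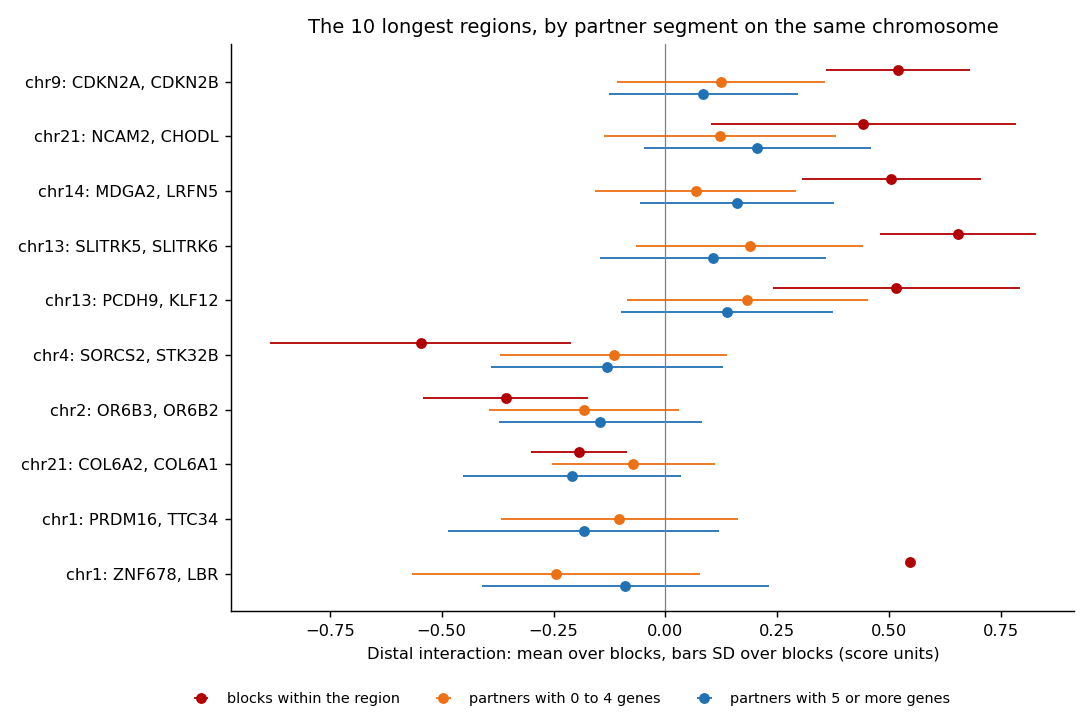
Mean distal interaction (score units, bars SD over blocks) of the 5 longest higher and the 5 longest lower regions, for blocks within the region and for partners with 0 to 4 or with 5 or more genes on the same chromosome. Each region is named by its chromosome and 2 of its genes. Within the 5 higher regions the means are 0.442 to 0.654, above those with outside partners, and distance was not matched. The region of chromosome 1 with LBR has 1 block within it, and that with PRDM16 has none.

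The longest lower regions were GC-rich and lay at chromosome ends in 4 of 5 cases, and 3 of them had few kept blocks. On chromosome 4, 8 segments (986189 to 8999545) with 81 genes, among them HTT, the huntingtin gene, had a mean distal score of -0.267 in Grow, -0.279 in GrowshA1, -0.307 in RIS and -0.531 in RISshA1, an interaction of -0.213 (SD 0.134 over segments). RISshA1 stood below the 3 other maps. The 15 kept blocks within the region had a mean of -0.547 (SD 0.337 over blocks). Only 22.5% of the possible distal pairs of this region were listed in all maps, and each segment rests on 11 to 42 blocks of 184 or 185. On chromosome 2, 5 segments (238399119 to 243199373) with HDAC4, a histone deacetylase, and KIF1A had 0.102, 0.0139, -0.0611 and -0.316, an interaction of -0.166 (SD 0.0396), with 25.6% listed. On chromosome 21, 5 segments (43007839 to 47998739) with the collagen VI genes COL6A1 and COL6A2 and the RNA-editing enzyme ADARB1 had -0.252, -0.198, -0.286 and -0.396, an interaction of -0.165 (SD 0.0421). In both, RISshA1 was again the lowest map. The end of chromosome 1 (1000704 to 4997691), with PRDM16, TP73 and SKI, had an interaction of -0.162 (SD 0.0239) with 20.1% listed. The fifth region (224599773 to 228602025 on chromosome 1) holds LBR, the lamin B receptor that tethers heterochromatin to the envelope, and had -0.141 (SD 0.0207). All 4 of its segments were called higher in the domain measure, with a mean of 0.338. On chromosome 1, however, 142 of 224 segments were called so and all lay above 0. With unlisted pairs counted as 0, the regions of chromosomes 4, 2 and 1 had values from -0.0363 to -0.0581, and that of chromosome 21 had -0.132.

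Single segments followed the regions. The highest distal interactions were 0.401 (SD 0.382 over 20 blocks of 31) and 0.375 (SD 0.426 over 20 of 31) in a gene-free part of chromosome 21 (19998150 to 21999077). There the distal score of the first segment was 1.04 in Grow, 0.994 in GrowshA1, 0.434 in RIS and 0.792 in RISshA1, with 16 of 20 blocks in the same direction. On chromosome 13 the segment with KLHL1, a neuronal actin-binding protein (69802199 to 70799977), had 0.859, 0.752, 0.536 and 0.799, an interaction of 0.370 (SD 0.297, 58 of 64 blocks above 0), and its neighbour at 68795804 had 0.348 (SD 0.228). The segment with PCDH17, a protocadherin (57796232 to 58800671), had 0.616, 0.483, 0.349 and 0.552, an interaction of 0.337 (SD 0.234, 72 of 75 blocks above 0). In both, RIS alone was low. The lowest value was -0.457 on chromosome 4 (2998443 to 4000032, with HTT, RGS12 and the muscle adaptor DOK7), over 18 blocks of 184, all 18 below 0. Low values were also found in the segments of chromosome 4 at 986189 (-0.382 over 11 blocks of 185) and, on chromosome 21, at 46996384 (-0.224 over 12 of 33), and of chromosome 4 at 4000033 (-0.221 over 37 of 184). With unlisted pairs counted as 0, the chromosome 4 segments had values of -0.0751, -0.0653 and -0.0448, all below the threshold in size, and that at 46996384 had -0.106. The higher segments kept their calls under the same setting, with 0.259 for the first of chromosome 21 and 0.177 for that of KLHL1. The value of a segment across the centromere of chromosome 7 (-0.227 over 12 blocks of 152) turned to 0.0437 on a shifted grid.

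In 4 segments, named here after their values were seen, the distal RAS change passed 0.1 in opposite directions, negative without and positive with the hairpin, and the reverse was found in 0 segments. They were a gene-free segment of chromosome 1 (104999680 to 105996775, -0.173 and 0.101), the segment of PCDH20 on chromosome 13 (61806458 to 62800074, -0.151 and 0.114) and 2 gene-free segments of chromosome 13 (70799978 to 71794769, -0.153 and 0.106, and 90798295 to 91799581, -0.101 and 0.118). No segment did so by 0.2 in the domain measure in either direction. The distal scores in Grow, GrowshA1, RIS and RISshA1 were 0.506, 0.341, 0.333 and 0.442 in the chromosome 1 segment. They were 0.773, 0.621, 0.623 and 0.735 at PCDH20. The 2 gene-free segments of chromosome 13 had 0.738, 0.611, 0.586 and 0.717, and 0.721, 0.518, 0.620 and 0.636. In all 4 segments GrowshA1 lay below Grow, and in the last one RIS and RISshA1 were nearly equal.

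Single distal blocks reached larger values. Among 38581 distal blocks with all 25 pairs listed, the SD was 0.249, and the 1st and 99th percentiles were -0.559 and 0.655. The highest joined the segment of SLITRK6 with a gene-free segment 2.999 Mb away on chromosome 13, with scores of 0.902 in Grow, 0.890 in GrowshA1, 0.281 in RIS and 1.46 in RISshA1 and an interaction of 1.195 (SD 0.439 over pairs). A block of chromosome 7, between a gene-free segment and that of ETV1, an ETS transcription factor, had 1.17 (SD 0.312), with scores of 1.13, 1.03, 0.785 and 1.86. Blocks of PCDH17 and of KLHL1 with the same gene-free segment of chromosome 13 (65803708 to 66799261) had 1.17 (SD 0.539) and 1.17 (SD 0.463). A block between gene-free segments of chromosome 4 (28000160 to 29002839 and 35004336 to 36002575) also had 1.17 (SD 0.331). In each of these 5 blocks RISshA1 was the highest map and RIS the lowest. Among the lower blocks described, one over 66.6 Mb of chromosome 7, between the segments of MEOX2 and CACNA2D1, a calcium channel subunit, had -1.11 (SD 0.698), and RIS was far above the other maps there (1.49 against 0.357, 0.167 and 0.189). On chromosome 1, a gene-free segment (190598134 to 191600042) had -1.06 (SD 0.570) with the segment of TPR, a nuclear pore protein, and -0.940 (SD 0.388) with that of LHX9. The last, -0.920 (SD 0.527), joined the segments of SF3A3, a splicing factor, and of HIVEP3 on chromosome 1, and RISshA1 was the lowest map there.

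Gene lists differed in their domain medians. Lists of long neuronal genes and of type II cadherins had the highest medians. Of 36 segments with long neuronal genes, 23 (63.9%) were called higher and 0 lower, against 22.6% and 9.18% of all segments, with a median of 0.2203. CTNNA2, an alpha-catenin of neurons, led with 0.494 (SD 0.0894 over pairs), from domain scores of 0.514 in Grow, 0.401 in GrowshA1, -0.0287 in RIS and 0.352 in RISshA1. PTPRD, a receptor phosphatase of synapses, had 0.456 and also the highest distal value of the list, 0.224. NRXN3, a neurexin, was lowest with -0.173. Of 12 segments with type II cadherin genes, 7 were called higher and 1 lower, with a median of 0.306, from 0.438 at CDH12 to -0.230 at CDH24, which lies beside MMP14. In the distal measure 5 of these 12 were called higher (41.7%, against 8.33%), led by CDH7 with 0.203. Of these, CDH18, CDH12 and CDH10 lay in the same distal region of chromosome 5, and CDH7 and CDH19 in neighbouring segments of chromosome 18. The 7 domain calls were the same 5 with CDH9 on chromosome 5 and CDH8 on chromosome 16. Neighbouring segments resembled each other, so these are not separate counts. CDH11, the mesenchymal cadherin of fibroblasts, had a domain value of 0.0404.

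Inflammatory genes of the senescence secretome had a domain median of -0.0800 over 16 segments, 0 higher and 2 (12.5%) lower, against 22.6% and 9.18% of all segments. The segment of the CXCL chemokine cluster, with CXCL1, CXCL8 and 4 others, had domain scores of 0.583 in Grow, 0.558 in GrowshA1, 1.01 in RIS and 0.719 in RISshA1, an interaction of -0.262, and RIS was its highest map. IL1A and IL1B share a segment at 0.194, just under the threshold. Its scores were -0.0142 in Grow, -0.191 in GrowshA1, 0.0453 in RIS and 0.0632 in RISshA1. The segment of IL6 had 0.158, from scores of 0.163, 0.0442, 0.153 and 0.193. In both, GrowshA1 was the lowest map. Matrix-degrading enzymes and their inhibitors had a median of -0.0441 over 11 segments, from 0.160 at TIMP2 to -0.230 at MMP14. Fibroblast matrix genes had -0.0429 over 21 segments, 1 (4.76%) higher (FAP, 0.219) and 3 (14.3%) lower. Lowest were COL5A1 with -0.394 and the COL6A1 and COL6A2 segment with -0.372, where the domain score was 0.299 in Grow, 0.340 in GrowshA1, 0.952 in RIS and 0.621 in RISshA1. In the distal measure, 3 of 21 matrix segments were called lower, against 3.49% of all segments. They were those of COL5A1 (-0.163 over 23 blocks), COL6A1 with COL6A2 (-0.224 over 12) and FN1, fibronectin (-0.114 over 103).

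Cell cycle genes had a domain median of -0.0445 over 25 segments, 3 (12.0%) higher and 2 (8%) lower, against 22.6% and 9.18% of all segments. CDC20, an activator of the anaphase-promoting complex on chromosome 1, had 0.339, and cyclin A2 (CCNA2) had -0.294. Cyclin D1 (CCND1) had the lowest distal value of the list, -0.151 over 19 blocks. Among 11 segments with arrest regulators, CDKN2C on chromosome 1 was the only one called higher (0.245) and RB1 the only one called lower (-0.218). The segments of CDKN2A and CDKN2B had distal interactions of 0.103 and 0.128, yet domain values of -0.0255 and 0.102, and at CDKN2A the domain score fell by 0.7001 with RAS without the hairpin and by 0.726 with it. TGF-beta and Notch genes had a median of -0.0585 over 17 segments, with 17.6% called in each direction, 3 higher (TGFB2, TGFBR3 and NOTCH2, all on chromosome 1) and 3 lower (TGFB3, SMAD7 and JAG2). The 2 segments of the clustered protocadherins were both called lower, with -0.239 and -0.240, and the 4 HOX clusters lay between -0.114 and 0.0112. Olfactory receptor genes had a median of -0.00399 over 54 segments, with 24.1% higher and 11.1% lower, close to all segments. They ranged from 0.443 in the cluster of OR2AJ1 on chromosome 1 to -0.299 in that of OR1J1 on chromosome 9. Zinc finger ZNF genes had -0.0422 over 182, with 9.34% higher and 7.69% lower, from 0.401 at ZNF524 to -0.413 at ZNF438. The type I interferon genes lie in 2 segments of chromosome 9, both called higher in the distal measure (0.103, and 0.130 at IFNK), and IFNK alone in the domain measure (0.232).

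HMGA1 and HMGA2 themselves and genes of the nuclear lamina were placed as well. The segment of HMGA1 had a domain score of 0.849 in Grow, 0.781 in GrowshA1, 1.23 in RIS and 0.967 in RISshA1, an interaction of -0.192, just under the threshold, and a distal one of -0.0802. That of HMGA2 had a domain score that fell by 0.953 with RAS without the hairpin and by 1.05 with it, and a distal interaction of 0.137. LBR, with 0.380, was called higher and LEMD3, an inner membrane protein, lower with -0.333. LMNA had the highest distal value of this list, 0.161 over 27 blocks, and LBR the lowest, -0.155 over 87. These are single segments of single maps, and each holds other genes too. The domain values of LBR, CDC20, CDKN2C, TGFB2, TGFBR3, NOTCH2 and the OR2AJ1 cluster include the shift of chromosome 1. Of its 224 segments, 142 were called higher, and 25 after subtraction of the chromosome mean. Beyond the highest and lowest members of each list, the genes named in the last 4 paragraphs were chosen after their values were seen.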

How the data were processed

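The authors aligned Hi-C reads of the pooled samples to hg19 with HiC-Pro, balanced the maps by iterative correction (ICE) and deposited, for each condition, a distance-corrected score per pair of bins of about 200 kb. The log base of the score is not given in the sources used here. Read counts per pair were not used here, so the precision of 1 score is unknown.

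The double difference was taken over autosomal pairs listed in all 4 maps and averaged in blocks of 5 by 5 bins with at least 60% of pairs listed (Python 3.11.15, numpy 2.4.6, pandas 2.3.3, scipy 1.17.1, matplotlib 3.10.9). Distal values needed 10 blocks and were called at 0.1, domain values at 0.2. Regions were runs of at least 3 called segments. Genes were placed by their start in the GENCODE annotation lifted to GRCh37. With 1 map per condition no test was made. The code was tested on simulated data.

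Named items were drawn from the 5 longest regions and the 5 most extreme segments and blocks in each direction, and from the extremes of 14 gene lists, not all of which are printed. The lowest block is not reported here. Members and lists were chosen with earlier results of these data known. A total of 17 alternatives were run, among them scaling, offsets, clipping, unlisted pairs, grid, block size and thresholds.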

Additional observations from a re-analysis of the deposited data

Results flagged for a closer look

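In 6 of the 9 distal blocks described (the lowest is not reported here), the RAS change had opposite signs without and with the hairpin. The difference between the 2 changes was not tested, since each map is a single value per pair. On chromosome 13 the interaction was 1.195 between the segment of SLITRK6 and a gene-free segment (-0.621 without and 0.574 with the hairpin). It was 1.17 for the block of PCDH17 (-0.712 and 0.457) and 1.17 for that of KLHL1 (-0.831 and 0.334), and these 2 share the gene-free segment at 65803708. The block of ETV1 on chromosome 7 had 1.17 (-0.345 and 0.829), and the block of 2 gene-free segments on chromosome 4 had 1.17 (-0.291 and 0.878). The block of TPR with a gene-free segment on chromosome 1 had -1.06, with the signs the other way round (0.442 and -0.619). The blocks were named because they were extreme, so their size is a description.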

How the results depend on the processing

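No paired analysis was possible because the 2 samples of each shA1 condition were pooled into 1 map, and for the same reason no sample could be left out. Counts are given as higher and lower segments, or regions. With each map scaled to 1 SD per distance, distal calls were 364 and 59, domain calls lower 159, regions 37 and 5, and distal rho with gene number -0.222 (-0.0437 as reported). With the mean at each distance subtracted, 159 distal and 391 domain segments were lower, and 5 of 14 lists had a distal median above 0 (10 as reported). With unlisted pairs counted as 0, distal calls were 63 and 37, regions 7 and 3, rho -0.0908 and such lists 4. With every pair of a block required, distal calls were 334 and 301, lower regions 31 and rho -0.0659. With blocks of 10 by 10 bins (fewer segments by construction) distal calls were 106 and 37 and domain calls 292 and 122. With distal limited to 3 to 20 segments they were 579 and 367. With medians, 149 distal segments were lower. With doubled thresholds, distal calls were 40 and 7 and domain calls 113 and 9, and with runs of at least 5 segments there were 11 and 3 regions. Distal rho was -0.0114 without the lowest 5% of scores per distance (the stand-in for pairs at the floor, since the scores are continuous) and -0.0186 with all genes. Alternatives chosen after seeing the data were subtraction of the chromosome mean (distal calls 138 and 167, lower regions 17) and leaving out segments with under 50% of distal blocks kept (147 and 30, regions 15 and 2, rho 0.0243, reversed). Of single values, the chromosome 9 domain segment at 44005029 became 0.0930 with scores limited and 0.0776 with unlisted pairs as 0, the chromosome 7 distal segment at 57998816 became 0.0437 on the shifted grid and 0.00398 in blocks of 10 by 10 bins, and the chromosome 1 domain run at 169599050 became -0.0244 with the chromosome mean subtracted. The causes were not tested.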
